A study of Mus musculus with 8 samples.

Results

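Blood stem and progenitor cells of Hmga2-/- fetal liver were set against those of wild-type adult bone marrow, on 3 knockout and 2 adult arrays out of the 8 arrays of the series, chosen by the genotype, tissue and age in the labels. All samples were Lin-Sca1+cKit+ cells, the fraction that lacks lineage markers and carries Sca1 and cKit, sorted from fresh mouse tissue. The knockout cells came from E14.5 fetal liver with the genotype Hmga2-/-, and the adult cells came from bone marrow of Hmga2+/+ mice aged 8 to 12 weeks. The remaining 3 arrays were E14.5 fetal liver cells with the genotype Hmga2+/+, and they served for the spread and for the test between the fetal genotypes. The labels call the arrays of a group biological replicates. They give no strain, no sex and no number of animals per array, and they do not say which stretch of Hmga2 the mutation removes. Genotype, tissue and age all differ between knockout fetal liver and adult marrow. The wild-type fetal arrays allow a test of genotype within fetal liver, whereas tissue and age change together in the series and cannot be told apart. In sorted bulk samples, fewer cells of a kind and less RNA per cell cannot be told apart either.

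Hmga2 encodes an architectural chromatin protein that bends AT-rich DNA, and it is made in fetal and not, or far less, in adult tissue. In mouse haematopoiesis it lies in a fetal pathway. The RNA-binding protein Lin28b blocks the maturation of let-7 microRNAs, mature let-7 pairs with target messages through its seed, and the messages of Hmga2 and of the Igf2bp family are among those targets. Fetal stem cells divide often, whereas most adult marrow stem cells rest. The microRNAs themselves were not analysed here, and 3 of them are shown because the family's shared seed defines the targets described next. The mature mouse sequences are from RefSeq (GRCm38.p6), 5′ to 3′, with the seed, bases 2 to 8, in capitals.
let-7a-5p, chr13:48538239-48538260, minus strand: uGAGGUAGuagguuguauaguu
let-7b-5p, chr15:85707325-85707346, plus strand: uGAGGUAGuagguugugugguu
let-7g-5p, chr9:106178846-106178867, plus strand: uGAGGUAGuaguuuguacaguu

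Each array gave 1 level per gene, the mean log2 intensity over the probe sets that carry that gene's symbol alone, for 19958 genes. All levels below are log2 intensities, and all differences are knockout fetal liver minus adult marrow on the log2 scale unless another pair is named. A group mean under 5.97, the 95th percentile of the values of 980 olfactory receptor genes, was taken as not above background. That holds for a gene's mean over probe sets, and single probe sets of the same gene can lie on the other side. Where 1 of the groups lay there, its level is only a bound and the fold is given as at least that value. Across genes, the knockout arrays correlated at 0.971 to 0.972 with each other and at 0.914 to 0.930 with the adult arrays, which correlated at 0.944 with each other. Wild-type fetal liver array 3 lay closer to the knockout arrays, at 0.974 to 0.975, than to wild-type arrays 1 and 2, at 0.957 and 0.965, although its Hmga2 level of 8.83 was that of its label. That array enters the comparison with adult marrow through the spread alone, and the counts of calls without it are given below.

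Hmga2 itself stood at 5.89, 5.88 and 6.08 in the 3 knockout arrays, against 9.24, 9.01 and 8.83 in wild-type fetal liver and 6.61 and 7.19 in adult marrow. The knockout arrays were thus the lowest of the 8, next to the background level, and did not overlap with the adult arrays. Hmga2 fell in knockout fetal liver relative to adult marrow by 0.95 ± 0.21 (SE), at least 1.86-fold (adjusted p = 0.0291, limma with Benjamini-Hochberg adjustment over all genes). The call was lost without any 1 of those arrays but adult array 1: the adjusted p was 0.0809, 0.0839 and 0.0612 without knockout arrays 1, 2 and 3, and 0.126 without adult array 2. Its 8 probe sets were not uniform, with 5 below and 3 above adult marrow and differences of -3.07 to 1.12. In 3 probe sets the knockout mean was above background, at up to 8.40.

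Igf2bp2, an RNA-binding protein of the let-7 target group, was the other gene at which the fetal genotypes differed. It had 5.40, 5.46 and 5.22 in knockout fetal liver, against 8.31, 8.81 and 8.11 in wild-type fetal liver and 5.37 and 5.27 in adult marrow. At this gene level knockout and adult arrays interleaved, all of them under background, and the wild-type fetal arrays stood far above both. Its 16 probe sets differed from adult marrow by -1.41 to 3.19, with 9 below and 7 above, and 8 of them had a knockout mean and 7 an adult mean above background, at up to 7.71 and 7.72. The difference from adult marrow was 0.04 (95% confidence interval -0.44 to 0.52, adjusted p = 0.918, limma). In the same model Hmga2 and Igf2bp2 were the 2 genes, 0.01% of those tested, called between knockout and wild-type fetal liver, lower by 3.08 and 3.05 on the log2 scale (adjusted p = 0.000448 each). No gene was called higher in the knockout.

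Lin28b, Igf2bp3 and Igf2bp1 were higher in knockout fetal liver than in adult marrow. Lin28b, the let-7 maturation blocker, measured 8.06, 8.53 and 8.03 in knockout fetal liver, against 4.42 and 4.31 in adult marrow. Every knockout array was above background and both adult arrays were below it. Lin28b rose by 3.84 ± 0.28 (SE), at least 4.72-fold (adjusted p = 0.000866, limma), and all 8 of its probe sets were higher in every knockout array than in either adult array.

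Igf2bp3 gave 8.88, 8.88 and 8.55 in knockout fetal liver, against 5.69 and 5.56 in adult marrow, a rise of 3.15 ± 0.17 (SE) or at least 6.97-fold (adjusted p = 0.000131, limma). Igf2bp1 gave 8.54, 8.37 and 8.05 in knockout fetal liver, against 5.40 and 5.18 in adult marrow, a rise of 3.04 ± 0.24 or at least 5.12-fold (adjusted p = 0.0011). Both encode RNA-binding proteins of the same family as Igf2bp2 and in both the groups were far apart. All 18 probe sets of Igf2bp3 and all 16 of Igf2bp1 were above adult marrow in the mean, and 9 and 3 of them had an adult mean above background. Against wild-type fetal liver the knockout differed by 0.38 at Igf2bp3, 0.15 at Igf2bp1 and 0.61 at Lin28b, none of which passed the test (adjusted p = 0.632, 0.866 and 0.632). The calls against adult marrow for Lin28b, Igf2bp1 and Igf2bp3 held in all 18 alternative fits.

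**Figure D1:**
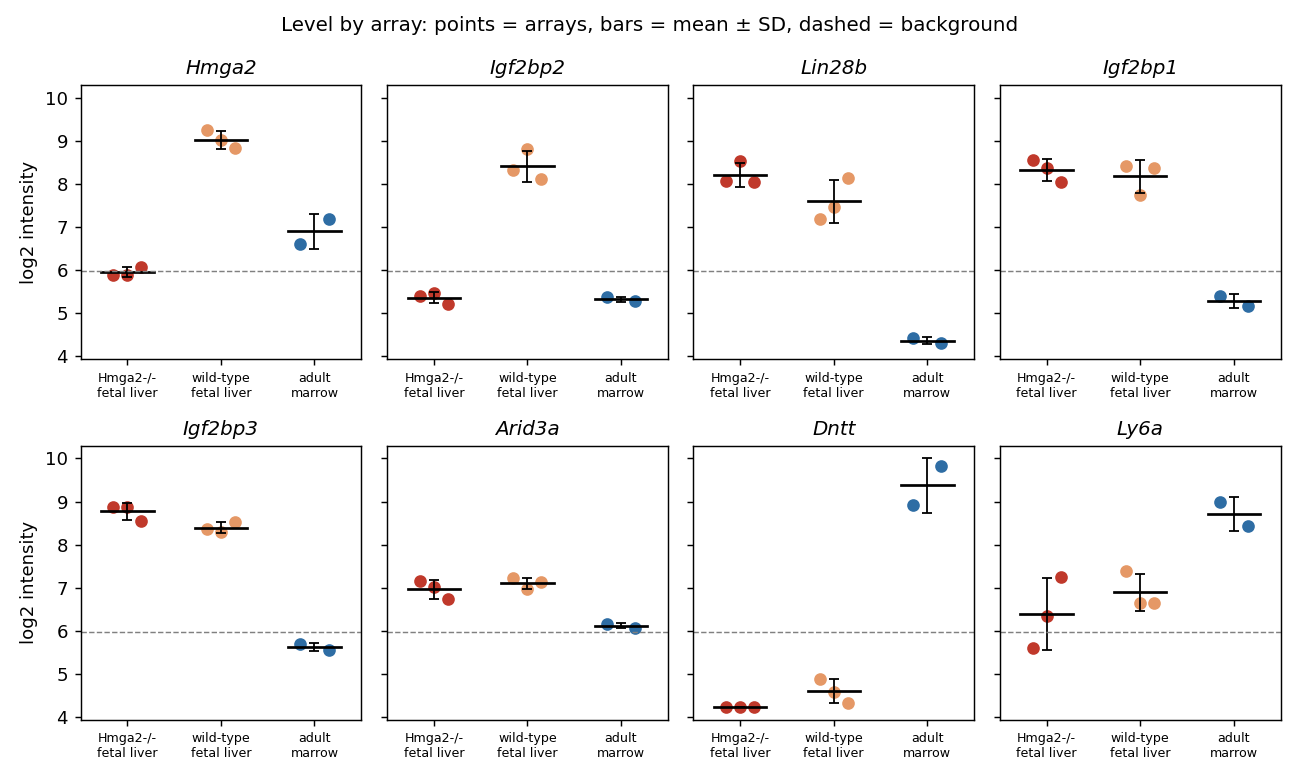
Level of 8 genes on each array (log2 intensity), with Hmga2-/- fetal liver on the left, wild-type fetal liver in the middle and adult marrow on the right. Points are arrays, bars the mean ± SD, and the dashed line is the background level of 5.97. Hmga2 and Igf2bp2 are low in the knockout and high in wild-type fetal liver, whereas Lin28b, Igf2bp1 and Igf2bp3 are high in both fetal groups and, in the mean over probe sets, below background in adult marrow.

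**Figure D2:**
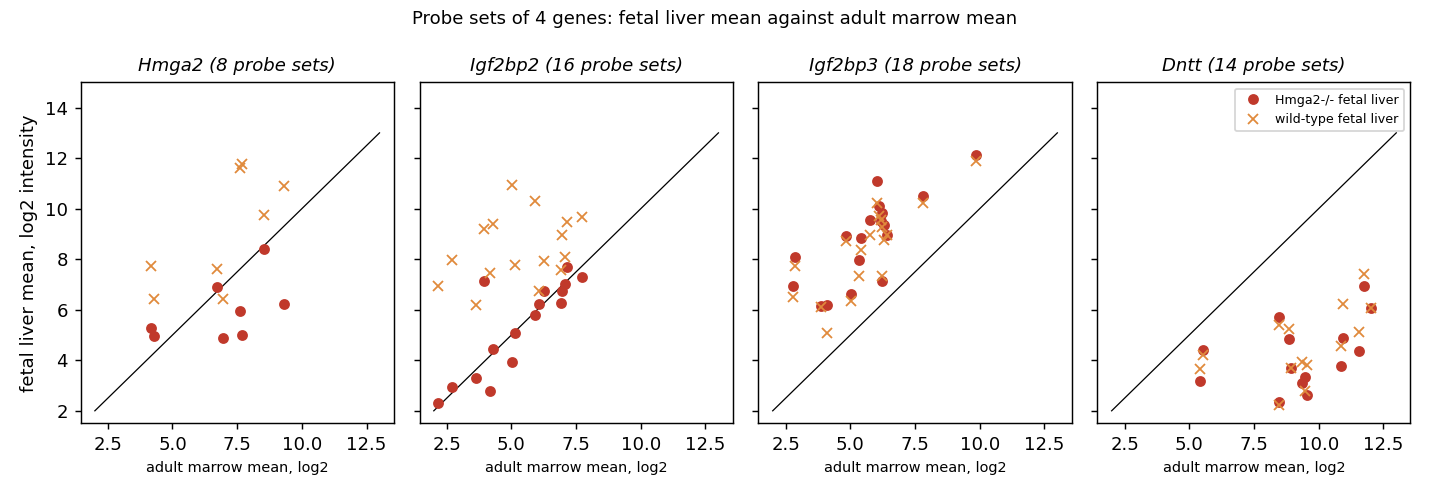
Probe set means of 4 genes, fetal liver on the vertical axis against adult marrow on the horizontal axis (log2 intensity), with filled circles for Hmga2-/- and crosses for wild-type fetal liver. The line marks equal levels. Knockout circles scatter about the line for Igf2bp2, lie above it in all 18 probe sets of Igf2bp3 and below it in all 14 of Dntt, and fall on both sides for Hmga2.

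Arid3a, a transcription factor of fetal B lymphopoiesis, averaged 6.96 ± 0.22 in knockout fetal liver (SD, n = 3) and 6.11 ± 0.06 in adult marrow (SD, n = 2), a rise of 0.85 or 1.80-fold (adjusted p = 0.025, limma). Drosha, which cuts microRNA precursors out of primary transcripts, rose by 1.19 or 2.28-fold (adjusted p = 0.0168). Dicer1, which cuts the precursors to mature length, rose by 0.83 or 1.77-fold (adjusted p = 0.0394). Those 3 calls depended on single arrays. Arid3a was lost without knockout arrays 1 or 2 (adjusted p = 0.0723 and 0.0743) and without adult arrays 1 or 2 (0.0855 and 0.0797). Drosha was lost without knockout arrays 1 or 2 and adult array 1 (adjusted p = 0.0517, 0.0524 and 0.078), and Dicer1 without any of the 5 arrays (adjusted p = 0.0835 to 0.153). In all, 6 of the 14 measured pathway genes were called higher and 1 lower, and 3 were called higher without knockout array 1, knockout array 2 or adult array 1. Lin28a and Igf2bp2 were under background in both groups in the mean over probe sets. Trim71, a ubiquitin ligase that is itself a let-7 target, differed by -0.57 (adjusted p = 0.0599). The Hmga2 paralog Hmga1 differed by -0.15 (95% confidence interval -0.55 to 0.25). Tut4 and Tut7, which add uridines to let-7 precursors, and Dis3l2, which degrades the tailed precursors, differed by 0.24, -0.12 and -0.37 and were not called.

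Among all genes, 1779 of 19958 (8.91%) were called at an adjusted p under 0.05. Of these, 1158 (5.8% of genes tested) were higher and 621 (3.11%) lower in knockout fetal liver, and 743 and 255 of them differed at least 2-fold. At an unadjusted p under 0.05 the counts were 2930 higher and 2939 lower. For 272 of the called genes both group means were under background. Counts of calls in the gene lists below stand against these shares of 5.8% higher and 3.11% lower. The median difference over all genes was -0.07, and it was -0.11 after quantile normalization and -0.12 after centring of each array on its median. With those scalings the calls were 887 higher with 679 lower and 1067 higher with 747 lower, so the share of higher calls was 56.6% and 58.8% in place of 65.1%. Left out in turn, knockout arrays 1, 2 and 3 gave counts of 436, 343 and 442 higher with 180, 139 and 160 lower. Without adult arrays 1 and 2 they were 397 and 908 higher with 156 and 345 lower. Without wild-type fetal liver arrays 2 and 3 they were 876 and 1418 higher with 401 and 1019 lower.

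The 12 largest rises among genes with at least 3 probe sets were those of Lin28b, Zfp711, Igf2bp3, Igf2bp1, Dstn, Prr11, Bank1, H19, Ppp4r2, Plk1, Cbwd1 and Ttk. Zfp711, a zinc finger protein, had 7.10, 7.47 and 8.05 in knockout fetal liver, against 4.12 and 4.23 in adult marrow (difference 3.36 ± 0.36, at least 2.97-fold, adjusted p = 0.00282, limma). Dstn, which encodes the actin-severing protein destrin, had 8.19, 8.86 and 8.48 in knockout fetal liver, against 6.28 and 5.50 in adult marrow (difference 2.62 ± 0.27, at least 5.23-fold, adjusted p = 0.00277). For both genes every knockout array was well above the higher adult array. Bank1, a scaffold protein of B cell receptor signalling, rose by 2.44, at least 2.15-fold, though its adjusted p was 0.0534 without adult array 1. Ppp4r2, a phosphatase subunit with 3 probe sets, rose by 2.24, and its call was lost without any of the 5 arrays (adjusted p = 0.054 to 0.157).

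The 12 largest falls among genes with at least 3 probe sets were those of Dntt, Cpne2, Ifi44, Muc13, H2-Aa, H2-gs10, Alcam, Myl10, Clnk, H2-Ab1, Zbtb20 and Ly6a. The call of Myl10 was lost without adult array 1 (adjusted p = 0.0797, limma). Dntt encodes terminal deoxynucleotidyl transferase, the enzyme that adds untemplated bases to the joints of rearranging antigen receptor genes. It had 4.23, 4.24 and 4.22 in knockout fetal liver, against 8.93 and 9.82 in adult marrow, a fall of 5.14 ± 0.26 (SE) or at least 10.6-fold (adjusted p = 0.000131, limma). In the mean over probe sets the knockout arrays were all below background and nearly identical. All 14 probe sets were lower, and 2 of them had a knockout mean above background. Muc13, a transmembrane mucin, had 7.81, 7.07 and 7.45 in knockout fetal liver, against 10.6 and 10.1 in adult marrow, 7.36-fold lower (adjusted p = 0.00277). Its knockout arrays were all above background. Alcam, an adhesion molecule, had 5.47, 5.73 and 5.96 in knockout fetal liver, against 8.49 and 8.36 in adult marrow, at least 5.49-fold lower (adjusted p = 0.00188). Against the same adult arrays, knockout fetal liver differed by -5.14 at Dntt, -2.88 at Muc13 and -2.71 at Alcam, and wild-type fetal liver by -4.78, -3.14 and -2.61. None of these genes was called between the fetal genotypes.

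**Figure D3:**
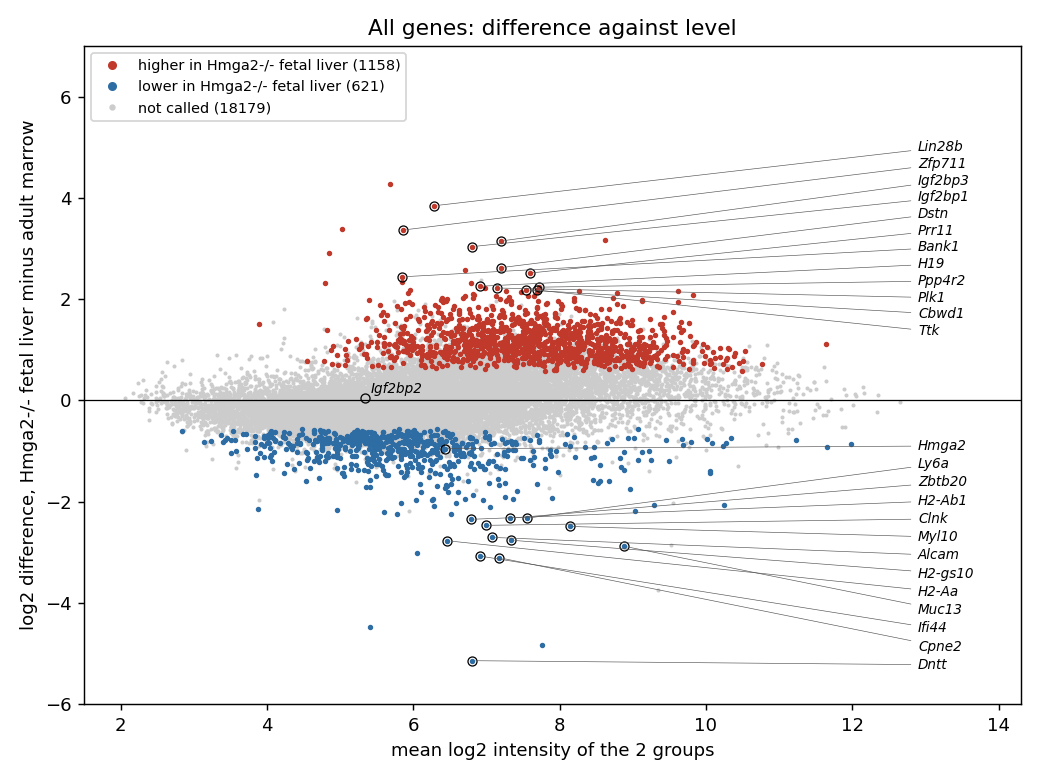
Log2 difference, Hmga2-/- fetal liver minus adult marrow, against the mean log2 intensity of those groups, 1 point per gene for 19958 genes. Red points are the 1158 genes called higher and blue points the 621 called lower. The 12 largest calls in each direction that met the naming rule are circled, with Hmga2 (-0.95) and Igf2bp2 (0.04).

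Ly6a encodes Sca1, an antigen of the sort, and it fell. It had 5.59, 6.34 and 7.25 in knockout fetal liver, against 9.00 and 8.44 in adult marrow. The knockout arrays were spread widely without reaching the adult ones. The fall was 2.32 ± 0.44 or 5.01-fold (adjusted p = 0.0179, limma), with an adjusted p of 0.0566 without knockout array 2 and of 0.0887 without adult array 1. The other antigen gene of the gate, Kit, differed by -0.43 (adjusted p = 0.127), at 9.90, 9.64 and 9.84 in knockout fetal liver and 10.3 and 10.2 in adult marrow. Since the gate selects on both proteins, the levels of these 2 genes describe the sorted cells.

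Genes of cell division made up the list with the highest share of calls among the 34 lists examined. Of 42 mitosis genes, 32 were called higher (76.2%, against 5.8% of all genes) and none lower, with a median difference of 1.35 against -0.07 over all genes. All 42 were above 0, against 43.6% of all genes. Plk1, a kinase that drives entry into and passage through mitosis, had 8.21, 8.30 and 8.24 in knockout fetal liver, against 5.63 and 6.43 in adult marrow, 4.66-fold higher (difference 2.22 ± 0.28, adjusted p = 0.00568, limma). Ttk, a kinase of the spindle checkpoint, had 8.58, 8.95 and 8.80 in knockout fetal liver, against 6.16 and 7.04 in adult marrow, 4.53-fold higher (adjusted p = 0.00656). In both genes the knockout arrays lay closer together than the adult arrays, of which array 2 was the higher. Ccna2, the cyclin of S phase and early mitosis, rose by 1.80 and Hmmr, a spindle protein, by 1.62. Without knockout arrays 1, 2 and 3 the count of mitosis genes called higher was 20, 17 and 20, and without adult arrays 1 and 2 it was 15 and 34. Over the 42 genes the adult arrays stood 0.28 below and 0.28 above their own mean, and the knockout arrays 1.23 to 1.42 above it.

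Of 38 DNA replication genes, 18 were called higher (47.4%) and none lower, with a median difference of 0.98. Prim1, the catalytic subunit of primase, had 9.68, 9.68 and 9.39 in knockout fetal liver, against 7.61 and 7.93 in adult marrow, 3.52-fold higher (adjusted p = 0.00282, limma). Mcm4, a helicase subunit, rose by 1.39 or 2.62-fold (adjusted p = 0.00761), and Orc1, the largest subunit of the origin recognition complex, rose by 1.94, at least 1.92-fold (adjusted p = 0.00702). The count was 12, 11 and 11 without knockout arrays 1, 2 and 3, and 12 without adult array 1. Of 23 G1 cyclins, CDKs and CDK inhibitors, 5 were called higher and 1 lower, with a median of 0.22, although the count of higher calls was 2 to 3 without any of the 5 arrays. Ccnd1, the D-type cyclin and a let-7 target, rose by 1.55 or 2.94-fold (adjusted p = 0.00433), and Ccne1, the E-type cyclin, by 1.39 or 2.61-fold (adjusted p = 0.00929). The fall was that of Cdkn2c, which encodes the CDK inhibitor p18. It had 4.2, 4.0 and 3.44 in knockout fetal liver, all under background, against 6.01 and 6.07 in adult marrow, both just above it (difference -2.16, at least 1.05-fold, adjusted p = 0.00282).

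Promoters of 3 cell cycle genes are shown, because the mitosis and replication lists held the highest shares of higher calls. Each is 300 bases of the RefSeq table for GRCm38.p6, from 250 before to 50 after an annotated start, 5′ to 3′ along the gene. The table holds 32851 promoters for 27025 genes, so some genes have several. The stretch of Cdc6 lies inside the annotated gene, which starts at position 98907709. Both strands were searched. TTTGAA, the core of the cell cycle homology region, was in 27 of the 34 mitosis genes with a promoter (79.4%), against 20.2% of 27025 genes. CCAAT, searched as a separate motif, was in 26 of those 34 (76.5%), against 41.1% of all genes. The E2F motif, searched as TTTGGCGC or TTTCCCGC, was in 11 of 30 replication genes (36.7%) against 1.8%. Among replication genes called higher it was in 3 of the 15 with a promoter. The capitals mark TTTGAA or its reverse complement in Plk1 and Ttk and the E2F motif, on the opposite strand, in Cdc6, the helicase loader.
Plk1, chr7:122159185-122159484, plus strand: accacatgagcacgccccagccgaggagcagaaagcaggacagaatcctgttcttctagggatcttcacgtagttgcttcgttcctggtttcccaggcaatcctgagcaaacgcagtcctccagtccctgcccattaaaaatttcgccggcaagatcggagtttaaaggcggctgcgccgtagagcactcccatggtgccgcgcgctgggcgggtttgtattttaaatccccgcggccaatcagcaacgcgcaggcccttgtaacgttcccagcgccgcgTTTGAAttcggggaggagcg
Ttk, chr9:83834439-83834738, plus strand: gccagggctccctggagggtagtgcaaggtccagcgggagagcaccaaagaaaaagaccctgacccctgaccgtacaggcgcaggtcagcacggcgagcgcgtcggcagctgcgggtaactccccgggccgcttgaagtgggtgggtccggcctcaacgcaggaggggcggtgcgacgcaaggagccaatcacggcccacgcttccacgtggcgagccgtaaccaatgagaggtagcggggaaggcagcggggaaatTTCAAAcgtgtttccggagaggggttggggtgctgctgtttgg
Cdc6, chr11:98907901-98908200, plus strand: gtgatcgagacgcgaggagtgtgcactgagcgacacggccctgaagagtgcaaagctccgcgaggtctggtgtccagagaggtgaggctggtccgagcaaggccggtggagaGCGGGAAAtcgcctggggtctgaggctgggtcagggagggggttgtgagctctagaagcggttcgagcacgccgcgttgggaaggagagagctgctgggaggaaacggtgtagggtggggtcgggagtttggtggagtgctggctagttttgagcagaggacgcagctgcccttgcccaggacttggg

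Of 36 nuclear genes of oxidative phosphorylation, 14 were called higher (38.9%) and none lower, with a median of 0.77. The difference was above 0 in 35 of them, against 43.6% of all genes. Sdhb, the iron-sulphur subunit of complex II, had 9.12, 8.74 and 8.58 in knockout fetal liver, against 7.66 and 7.45 in adult marrow, 2.39-fold higher (adjusted p = 0.0103, limma). The 3 knockout arrays were all above both adult arrays. Without knockout arrays 1, 2 and 3 the count of calls was 4, 2 and 5, and without adult arrays 1 and 2 it was 5 and 9. Of 27 enzymes of nucleotide synthesis, 9 were called higher (33.3%) and none lower, among them Shmt1, a serine hydroxymethyltransferase of folate metabolism, at 2.78-fold (adjusted p = 0.00656), and the ribonucleotide reductase subunits Rrm1 and Rrm2 at 2.23-fold and 1.98-fold (adjusted p = 0.00761 and 0.0103). That count was 4, 3 and 4 without knockout arrays 1, 2 and 3, and 5 without adult array 2. Among the genes of glycolysis 2 of 17 were called (median 0.54) and among those of cholesterol synthesis 2 of 17 (median 0.44), and without any 1 knockout array none was left in either list; without adult array 1 none was left in cholesterol synthesis, and without adult array 2 glycolysis had 1. Dnmt3b, a de novo DNA methyltransferase, rose by 1.57 ± 0.15 or 2.97-fold (adjusted p = 0.00215), with 9.58, 9.37 and 9.51 in knockout fetal liver, against 7.89 and 7.94 in adult marrow. It was 1 of 2 calls among 24 polycomb and DNA methylation genes, which numbered 4 without adult array 2 and 1 without any other array.

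**Figure D4:**
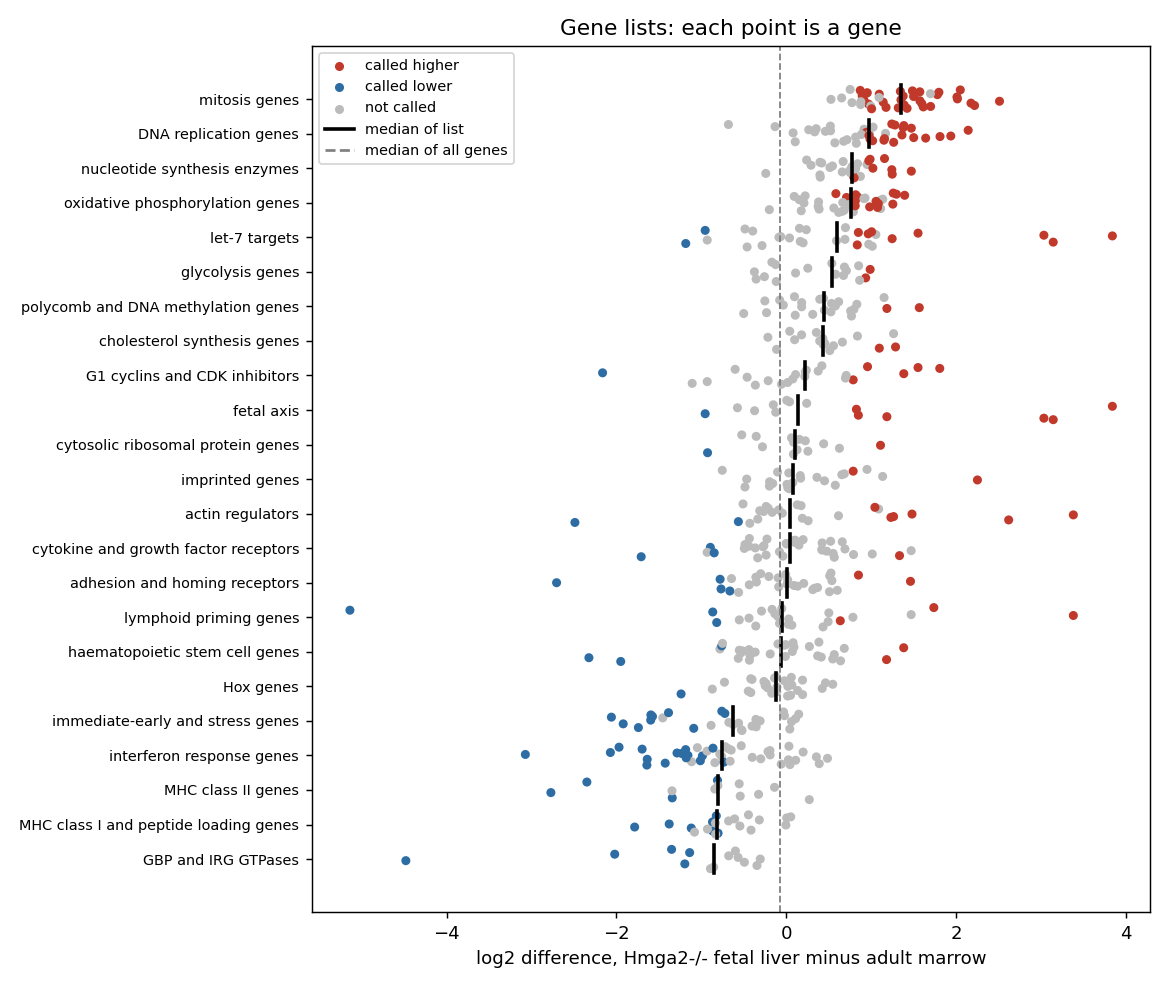
Log2 difference, Hmga2-/- fetal liver minus adult marrow, of every measured gene of the 23 pathway lists, ordered by list median. Red points are called higher, blue points called lower and grey points not called, black bars are list medians, and the dashed line is the median of all genes (-0.07). The mitosis list has the highest median, 1.35, and the GBP and IRG GTPases the lowest, -0.85.

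Of 41 interferon response genes measured, 16 were called lower (39%, against 3.11% of all genes) and none higher, with a median of -0.76. Ifi44, an interferon-induced protein, had 5.08, 5.46 and 5.57 in knockout fetal liver, against 8.71 and 8.18 in adult marrow, at least 5.56-fold lower (difference -3.07 ± 0.25, adjusted p = 0.00125, limma). In the mean over probe sets all knockout arrays were under background and far below the lower adult array. All 9 probe sets were lower, and 3 of them had a knockout mean above background. Zbp1, a sensor of Z-form nucleic acid, had 5.21, 5.20 and 5.41 in knockout fetal liver, against 7.02 and 7.46 in adult marrow, at least 2.41-fold lower (adjusted p = 0.00188). Ifit3, an antiviral RNA-binding protein, was at least 2.30-fold lower (adjusted p = 0.00527). Its near copies in the Ifit cluster can share signal, so its level is uncertain. Without knockout arrays 1, 2 and 3 the count of calls was 11, 7 and 7, and without adult arrays 1 and 2 it was 6 and 12.

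Of 13 GBP and IRG GTPases, the interferon-gamma-induced enzymes of cell-autonomous defence, 5 were called lower, against 3.11% of all genes. All 13 were below 0, whereas 43.6% of all genes were above 0. Without knockout arrays 1, 2 or 3, or adult array 1, 2 were called. Iigp1, which acts on pathogen vacuoles, had 4.91, 4.71 and 4.83 in knockout fetal liver, against 6.77 and 6.90 in adult marrow, at least 1.83-fold lower (adjusted p = 0.000935, limma). The knockout arrays were all under background and both adult arrays above it. The call was lost with the exon table (adjusted p = 0.15). Mpa2l, a guanylate-binding protein measured by 1 probe set, had 3.16, 3.24 and 3.10 in knockout fetal liver, against 8.08 and 7.21 in adult marrow (difference -4.48, at least 3.20-fold, adjusted p = 0.000535). That symbol was kept as given and had no position in the gene annotation, so which gene the probe set reads is uncertain. Gbp6, a list member with 10 probe sets, differed by -0.31 and was not called (adjusted p = 0.577, limma). Mpa2l and Gbp6 were named after their values were seen.

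The core of the interferon-stimulated response element, GAAANNGAAA on either strand, was in 13 of the 29 interferon response genes with a promoter (44.8%), against 4% of all genes, and in 4 of the 9 of them that were called lower. Ifit3 and its neighbour Ifit1 are shown, since each holds the motif at 2 places, on the opposite strand and in capitals. Ifit1 had 5.99, 5.55 and 5.60 in knockout fetal liver, against 7.0 and 6.80 in adult marrow (difference -1.18, adjusted p = 0.0202, limma).
Ifit3, chr19:34583279-34583578, plus strand: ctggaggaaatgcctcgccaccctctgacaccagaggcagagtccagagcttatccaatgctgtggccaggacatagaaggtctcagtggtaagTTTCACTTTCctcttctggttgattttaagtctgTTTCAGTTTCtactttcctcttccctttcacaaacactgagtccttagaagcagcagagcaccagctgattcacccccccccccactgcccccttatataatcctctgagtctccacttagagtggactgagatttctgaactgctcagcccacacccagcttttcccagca
Ifit1, chr19:34640639-34640938, plus strand: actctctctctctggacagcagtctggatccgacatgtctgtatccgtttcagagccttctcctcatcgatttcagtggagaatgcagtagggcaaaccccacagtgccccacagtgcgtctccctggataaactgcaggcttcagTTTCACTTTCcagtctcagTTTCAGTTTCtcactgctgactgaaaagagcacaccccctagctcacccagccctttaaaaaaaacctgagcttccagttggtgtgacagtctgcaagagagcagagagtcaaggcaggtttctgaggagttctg

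Antigen presentation was covered by lists of MHC class II and class I genes. Of 12 MHC class II genes, 4 were called lower (33.3%) and none higher, with a median of -0.81. H2-Aa and H2-Ab1, the chains of the I-A molecule, had the largest differences. H2-Aa had 5.16, 4.61 and 5.47 in knockout fetal liver, against 8.40 and 7.30 in adult marrow, at least 3.69-fold lower (adjusted p = 0.00687, limma). H2-Ab1 had 6.11, 5.18 and 5.57 in knockout fetal liver, against 8.25 and 7.68 in adult marrow, at least 3.87-fold lower (adjusted p = 0.00437). In both, adult array 1 was the higher adult array and the knockout means were under background. H2-DMa, which loads peptides, fell by 1.34 (adjusted p = 0.021) and H2-Eb1 by 0.81 (adjusted p = 0.035). H2-DMa was not called without knockout arrays 1 or 2 or adult array 1 (adjusted p = 0.0604, 0.0656 and 0.0984), and H2-Eb1 was not called without any of the 5 arrays (adjusted p = 0.0634 to 0.148). The count of class II calls was 2 without knockout array 2 and without adult array 1. Ciita, the class II transactivator, and Cd74, the invariant chain, were under background in both groups, at differences of -0.33 and -0.54 that did not pass the test. The other members were H2-Ob at -1.34 (adjusted p = 0.0523), H2-DMb1 at -0.84, H2-Oa at -0.80, H2-Eb2 at -0.55, H2-Ea at -0.14 and H2-DMb2 at 0.27, none called. The summed linear intensities of 12 dendritic cell markers were 1519 to 1744 in knockout fetal liver and 1725 to 1750 in adult marrow. Flt3, Tcf4 and Bst2 weighed most in them, at 9.15, 8.66 and 8.1 in knockout fetal liver and 9.59, 8.29 and 7.71 in adult marrow. Siglech, Batf3 and Zbtb46 were above background in adult marrow alone, at 6.28, 6.18 and 6.02 against 5.64, 5.92 and 5.63 in knockout fetal liver. Siglech differed by -0.63 and was not called (adjusted p = 0.0727, limma). Irf8 went the other way, at 6.73 in knockout fetal liver and 6.24 in adult marrow. Itgax, Xcr1, Clec9a, Cd209a and Ccr9 were under background in both groups. These markers were named after their values were seen. The sums of 13 B cell markers were 550 to 620 in knockout fetal liver and 603 to 690 in adult marrow. The part of dendritic and B cells in the class II values was not tested. CCAAT, the box next to the class II promoter elements, was in all 8 class II genes that had a promoter, against 41.1% of all genes, and it is in capitals, on the opposite strand, in H2-Aa.
H2-Aa, chr17:34287774-34288073, minus strand: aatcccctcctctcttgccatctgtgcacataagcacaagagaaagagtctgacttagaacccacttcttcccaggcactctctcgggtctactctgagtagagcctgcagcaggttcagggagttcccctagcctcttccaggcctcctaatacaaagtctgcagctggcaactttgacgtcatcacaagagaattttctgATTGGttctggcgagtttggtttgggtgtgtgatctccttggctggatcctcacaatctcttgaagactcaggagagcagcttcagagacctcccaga

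Of 20 MHC class I and peptide loading genes, 7 were called lower (35%) and none higher, with a median of -0.81. In 17 of them every knockout array was under both adult arrays, as it was in 5889 of all 19958 genes. H2-K1, a classical class I heavy chain, had 8.42, 8.02 and 8.14 in knockout fetal liver, against 9.48 and 9.66 in adult marrow, 2.60-fold lower (adjusted p = 0.011, limma). H2-Q6 was 3.45-fold lower (adjusted p = 0.00776). Class I genes are near copies of each other, so single members are uncertain. B2m, the shared light chain, is not part of that family and fell by 0.86 or 1.82-fold (adjusted p = 0.0212), with 11.5, 11.6 and 11.6 in knockout fetal liver, against 12.4 and 12.5 in adult marrow. It was not called without any of the 5 arrays (adjusted p = 0.0577 to 0.0744), though the groups did not overlap. The count of class I calls was 3, 2 and 2 without knockout arrays 1, 2 and 3, and 3 without adult array 2.

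Immediate-early and stress genes, which respond within minutes to stimulation and to handling of cells, made up a list of 27. Of these, 10 were called lower (37%) and none higher, with a median of -0.62. Nr4a1, an orphan nuclear receptor, had 6.95, 7.20 and 6.64 in knockout fetal liver, against 9.12 and 8.58 in adult marrow, 3.79-fold lower (adjusted p = 0.00575, limma). Dusp1, a MAP kinase phosphatase, was 4.17-fold lower (adjusted p = 0.00944) and Fosb, an AP-1 subunit, 3.34-fold lower (adjusted p = 0.00656), each with all knockout arrays under both adult arrays. The count was 6, 5 and 4 without knockout arrays 1, 2 and 3, and 3 without adult array 1. The labels give no time from dissection to lysis, and the part of cell handling in these values was not tested.

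**Figure D5:**
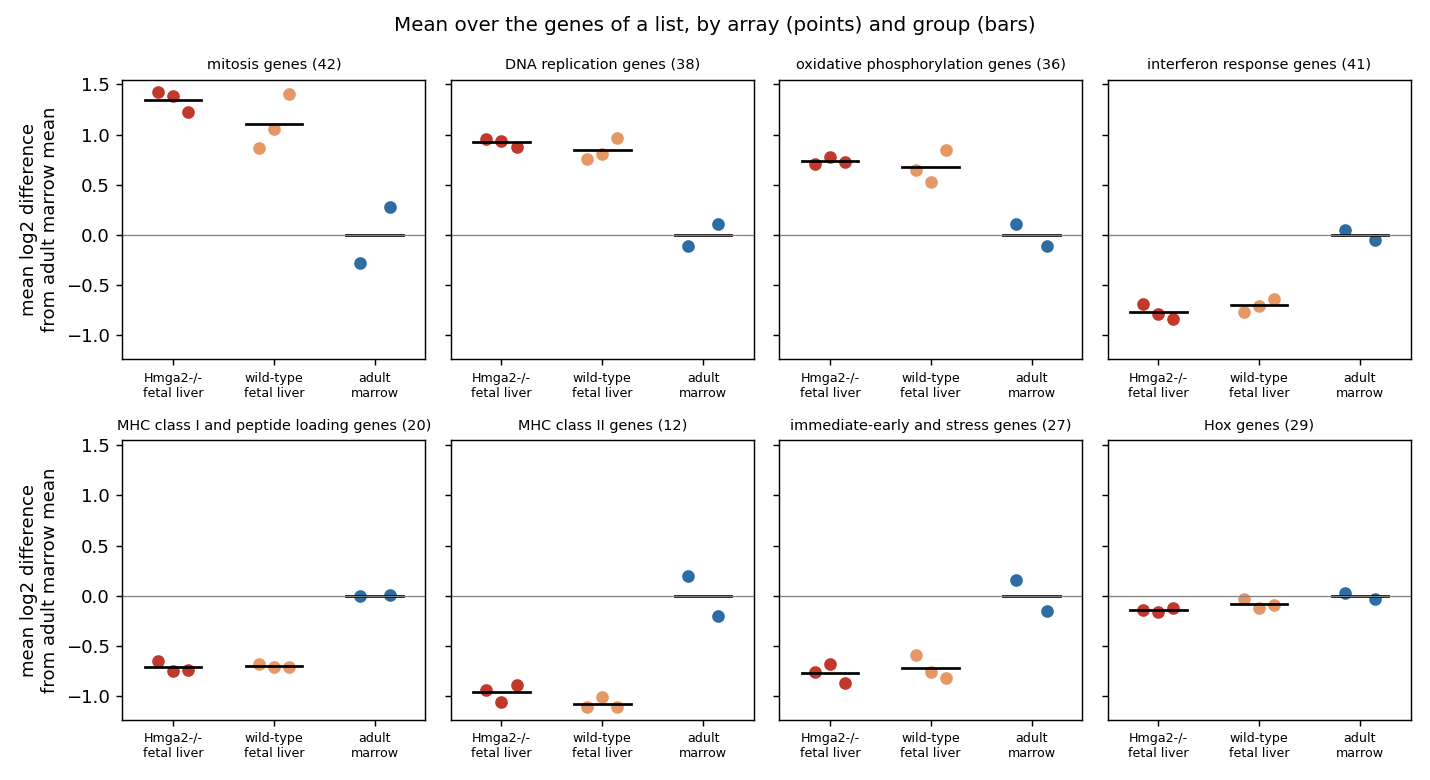
Mean over the genes of 8 lists on each array, as the log2 difference from the adult marrow mean, with Hmga2-/- fetal liver on the left, wild-type fetal liver in the middle and adult marrow on the right. Points are arrays and bars are group means. The knockout arrays reach 1.23 to 1.42 for mitosis genes and -0.84 to -0.69 for interferon response genes, and stay between -0.16 and -0.12 for Hox genes.

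Of 32 haematopoietic stem cell genes, 2 were called higher (6.25%, against 5.8% of all genes) and 3 lower (9.38%, against 3.11%), with a median of -0.06. The count of falls was 1 without knockout array 2 and without adult array 1, and the count of rises 1 without adult array 1. Myct1, a gene of haematopoietic and endothelial cells, had 6.25, 6.59 and 6.31 in knockout fetal liver, against 7.86, 7.44 and 7.33 in wild-type fetal liver and 8.06 and 8.61 in adult marrow. It was 3.86-fold lower in the knockout than in adult marrow (adjusted p = 0.00437, limma), and the knockout minus wild-type difference of -1.16 did not pass the test (adjusted p = 0.411). Ctnnal1, or alpha-catulin, which marks stem cells in adult mouse marrow, rose by 1.39 or 2.61-fold (adjusted p = 0.00656). Cd48, a surface antigen absent from most adult stem cells, rose by 1.18 or 2.27-fold (adjusted p = 0.0139, and 0.0723 without adult array 1). Of 29 Hox genes, 1 was called, Hoxa5, lower by 1.24 (adjusted p = 0.0257, and 0.0526 to 0.125 without any 1 of knockout arrays 1 to 3 or adult array 1), and 20 were under background in both groups.

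Lymphoid priming genes split. Over all genes, 5.8% were called higher and 3.11% lower. Of 23 lymphoid priming genes measured, 3 were called lower and 3 higher, with a median of -0.05, and each count was 1 without knockout arrays 1, 2 or 3. Dntt led the falls. Cnn3, an actin-binding calponin, rose by 3.38, at least 1.68-fold (adjusted p = 0.00188, limma), from a single probe set. It is also among the 24 actin regulators, of which 6 were called higher and 2 lower. Myh10, the non-muscle myosin IIB heavy chain, had 6.62, 6.64 and 6.53 in knockout fetal liver, against 5.24 and 5.48 in adult marrow, at least 1.55-fold higher (adjusted p = 0.00675). Without knockout array 3 the higher calls among actin regulators numbered 3, and without adult array 1 none was called lower. Among 29 adhesion and homing receptors, 4 were called lower and 2 higher, the latter a share near the 5.8% of all genes. Itgb2, the beta-2 integrin chain, had 6.94, 7.65 and 7.46 in knockout fetal liver, against 5.94 and 5.83 in adult marrow, at least 2.60-fold higher (adjusted p = 0.00794). Alcam moved the other way. Without 1 array the higher count was 1, and the lower count was 1 without knockout arrays 1, 2 or 3 or adult array 1.

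Of 29 let-7 targets measured, 9 were called higher (31%) and 2 lower, with a median of 0.59. Lin28b, Igf2bp1, Igf2bp3, Arid3a and Ccnd1, all called higher, are described above. Lin28b, Igf2bp1, Igf2bp3, Arid3a and Hmga2 were also counted among the pathway genes above, so the counts of these lists are not separate. Hmga2 was 1 of the 2 falls. The other was Thbs1, the matrix protein thrombospondin 1, with 5.29, 5.60 and 5.41 in knockout fetal liver, against 6.70 and 6.54 in adult marrow, at least 1.57-fold lower (adjusted p = 0.00736, limma). The count of targets called higher was 4, 4 and 5 without knockout arrays 1, 2 and 3, and 4 without adult array 1. Falls numbered 1 when any array other than adult array 1 was left out. Among 23 imprinted genes 2 were called, both higher, against 5.8% of all genes, and 1 was left without knockout arrays 1 or 3. H19, the maternally expressed long RNA, had 7.70, 8.16 and 8.25 in knockout fetal liver, against 9.41, 8.64 and 8.44 in wild-type fetal liver and 5.61 and 5.95 in adult marrow. It was at least 4.19-fold higher in the knockout than in adult marrow (adjusted p = 0.0064, and 0.0946 when probe sets were summarised by their median). The knockout minus wild-type difference of -0.80 did not pass the test (adjusted p = 0.631).

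Genes called against adult marrow were then ordered by the test between the fetal genotypes, and after Hmga2 the smallest p-values were those of Derl2, Phf19, Pwwp3b and Tspan5. None passed (adjusted p = 0.155 for Derl2 and 0.292 for each of the others, limma). Tspan5, a tetraspanin, had 8.64, 8.76 and 8.98 in knockout fetal liver, against 7.76, 7.98 and 7.87 in wild-type fetal liver and 7.14 and 7.0 in adult marrow. The 3 groups did not overlap and were ordered knockout, wild type, adult. It was 3.31-fold higher in knockout fetal liver than in adult marrow (adjusted p = 0.00215). Derl2, a protein of endoplasmic reticulum quality control, had 6.65, 6.70 and 6.51 in knockout fetal liver, against 7.78, 7.66 and 7.57 in wild-type fetal liver and 7.42 and 7.26 in adult marrow. Here the knockout was below both other groups, which did not overlap with it (adjusted p = 0.0274 against adult marrow, and 0.0702, 0.0662 and 0.0799 without knockout arrays 1, 2 and 3 and 0.131 and 0.056 without adult arrays 1 and 2). The comparisons of both fetal groups with adult marrow share the 2 adult arrays, so their differences are not independent.

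Markers of other cell types were described by 11 lists, whose counts stand against 5.8% of all genes called higher and 3.11% lower. Summed intensities were taken on the linear scale, so the brightest members weigh most in them. No gene was called in the lists of B cells (13 genes), T and NK cells (17), dendritic cells (12) or mast cells and basophils (11). The hepatocyte genes Alb and Afp were under background in both groups, and in the hepatocyte list 2 of 21 were called, both lower, of which none was left without any 1 knockout array or adult array 1 and 1 without adult array 2. In the erythroid list 1 of 19, Tfrc, was called higher and 1, Car2, lower. No erythroid gene was called higher without knockout arrays 1 or 3, and none lower without knockout arrays 1 or 2. Summed intensities were 1440 to 1615 in knockout fetal liver and 1759 to 2056 in adult marrow. The means of Car2, a bright member, were 8.67 in knockout fetal liver and 9.84 in adult marrow. Those of Tfrc went the other way, at 8.4 and 6.99. In the megakaryocyte list 3 of 21 were called lower, a share above the 3.11% of all genes, and 1 without knockout arrays 1 or 3 or adult array 1, with sums of 1926 to 2117 in knockout fetal liver and 2371 to 2424 in adult marrow. The T and NK cell sums were 627 to 682 in knockout fetal liver and 747 to 929 in adult marrow, and 15 of the 17 genes were under background in both groups. Mast cell and basophil sums were 437 to 484 in knockout fetal liver and 553 to 656 in adult marrow. In the granulocyte and myeloid list 1 of 18, Stfa1, was called higher and 2, Ms4a3 and Csf3r, lower, with 0 to 1 higher and 0 to 3 lower without any 1 of the 5 arrays, and sums of 2894 to 3303 in knockout fetal liver and 2378 to 3268 in adult marrow. In the macrophage list 1 of 19, Cd68, was called higher, and none without any 1 of those arrays, with sums of 989 to 1145 in knockout fetal liver and 1037 to 1159 in adult marrow. In the stromal list 1 of 16, Postn, was called higher and 1, Vcam1, lower, with 0 to 1 of each without any 1 of those arrays, and sums of 692 to 789 in knockout fetal liver and 686 to 781 in adult marrow. Ms4a3 and Vcam1 were under background in both groups, and Stfa1 was measured by 1 probe set. Stfa1, Ms4a3, Csf3r, Cd68, Postn, Vcam1, Tfrc and Car2 were named after their values were seen. Endothelial sums were higher, at 1988 to 2045 in knockout fetal liver and 1457 to 1503 in adult marrow, with 2 of 19 genes called, and 1 when any of the 5 arrays was left out. One of these was Egfl7, a secreted angiogenic factor and the brightest member of that list in knockout fetal liver. It had 9.13, 8.76 and 8.99 there, against 6.85 and 7.36 in adult marrow, 3.62-fold higher (adjusted p = 0.00691, limma). The endothelial genes that were not called went both ways, from 0.84 at Sox18 to -0.58 at Eng. Kdr, Plvap, Sox7, Sox17, Flt1, Lyve1, Stab2 and Mmrn2 were under background in both groups. Those members were named after their values were seen. The part of these cells in the differences above was not tested.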

How the data were processed

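RNA of sorted cells was amplified, labelled and hybridised to Affymetrix Mouse Gene 1.0 ST arrays, 1 per sample. The deposited value table and exon table hold intensities on a linear scale, summarised per probe set by the authors with RMA, per the submitters' processing notes, which name no version. The authors' intensity values ran from 3.03 to 13252 and were log2-transformed here, and array medians were 6.20 to 6.27 on that scale. Of 225993 probe sets, 208881 had 1 gene symbol in the array annotation, 1668 several and 15444 none. Symbols were updated through RefSeq synonyms (2585 of 19958) or were current (17255), and 118 were kept as given. Probe sets of a gene were averaged (median 8 per gene). The number of arrays limits the precision, with a median SE of 0.21 for a difference.

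All 8 arrays were fitted with 1 coefficient per group in limma 3.58.1 (R 4.3.3), two-sided, with Benjamini-Hochberg adjustment over 19958 genes and a threshold of 0.05; text and plots used Python 3.11.15 and matplotlib 3.10.9. On data simulated with the same spread, 42% of genes changed 2-fold and 82% of those changed 3-fold were called. The groups, the 34 gene lists (11 of them cell type markers) and the tests were chosen with earlier results of these data known, so no list was tested as a set. Named genes were the 12 largest calls in each direction with at least 3 probe sets and no overlap between groups, leaving out predicted genes; the fetal pathway and class II genes in full, with Kit and Ly6a; up to 4 called genes per list with the smallest p; and the 5 called genes with the smallest p between the fetal genotypes. Ifit1 and Cdc6 were added for their promoters after their values were seen. Alternatives covered the arrays fitted, scaling, filters, probe set summary, variance model, array weights, thresholds and the exon table, in which 180224 of 199508 exons had the same 8 values as a probe set.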

Additional observations from a re-analysis of the deposited data

Results flagged for a closer look

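At 2 genes the difference from adult marrow was not the same for both fetal genotypes, by a test of that difference itself (knockout minus wild-type fetal liver in limma, which equals the knockout's difference from adult marrow less that of the wild type, since both share the 2 adult arrays). Hmga2 is the gene mutated in the knockout, so a lower level there was given by the design. For Hmga2 the difference from adult marrow was -0.95 in knockout and 2.12 in wild-type fetal liver, and the test gave -3.08 (adjusted p = 0.000448). For Igf2bp2 those differences were 0.04 in knockout and 3.09 in wild-type fetal liver, and the test gave -3.05 (adjusted p = 0.000448). Both genes were lower in all 3 knockout arrays than in all 3 wild-type fetal arrays.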

How the results depend on the processing

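No named gene that was called changed direction in any alternative fit that gave it a value, of which each named gene had 16 to 18. Among named genes not called, differences near 0 could change sign when 1 array was left out. Lin28a and Igf2bp2, at 0.01 and 0.04 with all arrays, were such genes. Of 103 named genes that were called, 49 were called in every alternative fit that gave a value for them, and of 16 not called, 13 were called in none that did. The counts of genes called moved more. Leaving out 1 array gave 343 to 1418 genes called higher and 139 to 1019 called lower, against 1158 and 621 with all 8. With the replicate number of the labels as a replicate block they were 352 and 137. Deviations of same-numbered arrays from their group means correlated at -0.04 to 0.02. With so few arrays per group, those correlations cannot decide whether same-numbered arrays shared a batch. The counts were 543 and 219 with the median of probe sets and 771 and 332 with the exon table (18995 genes tested). They were 143 and 67 at an adjusted p under 0.01, and 743 and 255 when at least 2-fold was also required. The filter on dim genes, which tests 10910 genes, left 403 called lower and raised the share of higher calls to 76.3%, against 65.1%. With 2 adult arrays, changes under about 2-fold were often missed: in simulated data of the same spread, 2% of genes changed 1.5-fold were called. Levels under the background of 5.97 are bounds.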
